A study of Mus musculus with 26 samples.

Results

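The genes described here are the 6 metabotropic glutamate receptor genes Grm2, Grm3, Grm4, Grm5, Grm7 and Grm8 of the mouse, taken by symbol from count tables that share 31978 genes. All 6 had a row in every table and all 6 passed the filter on low counts in both model fits. The samples are RNA-seq libraries from dorsal striatum of Drd2-TRAP mice of line CP101, of FVB/N-Swiss Webster origin crossed to C57BL/6 for at least 9 generations. In these mice a ribosomal protein tagged with EGFP is made in cells that use the Drd2 gene, and antibodies to EGFP pull down the ribosomes of those cells with their bound mRNA (translating ribosome affinity purification, TRAP). Every animal carried the transgene and had self-administered saline or cocaine.

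The 23 immunopurified libraries fall into 5 groups: saline (n = 3), cocaine with intake that did not escalate (non-escalating, n = 4), cocaine with escalating intake (n = 2), saline followed by withdrawal (n = 5) and non-escalating cocaine followed by withdrawal (n = 9). The 3 input libraries hold the RNA of the whole tissue before purification, 1 each for saline, non-escalating and saline withdrawal. There is no input for the escalating or the non-escalating withdrawal group, and no escalating withdrawal group. The sources used here give neither the age of the animals nor how long withdrawal lasted, and do not say whether each library came from a separate animal. The p-values therefore measure the spread between libraries, which may be technical in part. Drd2 is also used by the cholinergic interneurons of the striatum, so the tag is not limited to D2 medium spiny neurons, the projection neurons of the indirect pathway.

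Metabotropic glutamate receptors are G-protein-coupled receptors that sense glutamate at and around synapses and change how strongly those synapses work. Group I receptors, Grm5 among them, couple to Gq and phospholipase C and sit mainly on the postsynaptic side, where in striatal projection neurons they drive endocannabinoid-dependent long-term depression. Group II receptors (Grm2 and Grm3) and most group III receptors (Grm4, Grm7 and Grm8, with Grm6 largely limited to the retina) couple to Gi/o, lower cyclic AMP and restrain transmitter release. Grm3 is also made by astrocytes, and the protein of Grm4 is known on striatopallidal terminals, the axon endings of D2 neurons.

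Libraries held 3279457 to 19122303 gene counts. Library numbers in the sample titles divide the libraries into set A, with 15 immunopurified libraries, and set B, with 8, which are all from withdrawal groups. The place of saline withdrawal set A replicate 2 is uncertain. It was put in set A by its number, but it alone of that set has no copy mark, and its table lists 32531 genes, as those of set B do. Levels are given as CPM (counts of a gene per 1000000 gene counts of the library), on library sizes scaled by TMM factors. The summed level of 7 D2 neuron markers was 2046 to 18040 CPM in immunopurified libraries and 1984 to 2096 CPM in inputs, and 6 of the 7 markers were called higher in immunopurified RNA (median log2 fold change 1.97). The library saline withdrawal set A replicate 1 stood apart. Its D2 markers summed to 2046 CPM, within the range of the inputs, its 9 endothelial and mural markers summed to 7528 CPM, the highest of all libraries, and 70.7% of its uniquely aligned reads lay outside genes. Differences between immunopurified groups that include it are given with and without it for Grm5, Grm3 and Grm4. Against inputs this is done for Grm3.

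Grm5, the group I receptor gene, was the most counted member, with 74009 counts over the immunopurified libraries. It lies on the plus strand of chromosome 7 from 87584168 to 88134907 (GRCm38). Its level was 303.9, 490.3 and 302.6 CPM in the 3 saline libraries, and 424.7, 480.3, 291.1 and 365.3 CPM in the 4 non-escalating libraries. The escalating libraries had 394.0 and 398.6 CPM. Saline withdrawal libraries had 66.6 and 220.4 CPM in set A and 372.9, 467.5 and 421.6 CPM in set B, and non-escalating withdrawal libraries ran from 165.6 to 537.5 CPM with a median of 457.9 CPM. The groups overlapped, and the 2 lowest values of the series, 66.6 and 165.6 CPM, came from the 2 libraries with the most reads outside genes, at 70.7% and 60.7%.

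Grm3, a group II receptor gene, lies on the minus strand of chromosome 5 from 9485541 to 9725170. Its level was 95.2, 143.5 and 110.5 CPM in saline libraries and 85.1, 110.3, 110.5 and 114.0 CPM in non-escalating libraries. The escalating libraries had 111.4 and 161.9 CPM. Saline withdrawal libraries had 41.8 and 101.9 CPM in set A and 107.9, 86.2 and 69.2 CPM in set B. Non-escalating withdrawal libraries ran from 59.3 to 231.9 CPM with a median of 132.0 CPM. All immunopurified libraries but 1 were below the 3 inputs, at 219.5, 224.1 and 256.9 CPM. That library was non-escalating withdrawal set A replicate 2, at 231.9 CPM.

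Grm2, the other group II gene (chromosome 9, 106643095 to 106656082, minus strand), was close to the limit of detection. It had 302 counts in total over the 23 immunopurified libraries, with 0 counts in 8 of them and at most 3 counts in 12. A library with 0 counts allows up to 3 counts, and such limits cover counting error only. Saline libraries held 5, 37 and 23 counts, non-escalating libraries 0, 6, 0 and 16, and the escalating libraries 112 and 22. Of the saline withdrawal libraries, 3 held 1 count each and the other 2 held 0, whereas the non-escalating withdrawal libraries ran from 0 to 40 counts. The inputs held 15, 59 and 2 counts. Counts this low do not order the groups, and exons of Grm2 overlap a predicted gene on the opposite strand (Gm28111) from which its reads cannot be told apart without strand.

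Grm4, a group III receptor gene, varied more relative to its mean among immunopurified libraries than Grm5 or Grm3. It was at 180.9 ± 116.7 CPM (SD, n = 23), against 376.1 ± 120.2 for Grm5 and 111.8 ± 40.2 for Grm3. Grm4 lies on the minus strand of chromosome 17 from 27422387 to 27521403. Its level was 118.6, 289.2 and 179.8 CPM in saline libraries and 224.5, 284.9, 83.4 and 158.7 CPM in non-escalating libraries. The escalating libraries lay far apart, at 401.5 and 143.4 CPM. Saline withdrawal libraries had 25.2 and 84.7 CPM in set A and 116.9, 102.3 and 135.2 CPM in set B. Non-escalating withdrawal libraries ran from 76.4 to 451.9 CPM with a median of 139.9 CPM, and the 3 highest of them, at 283.4, 401.3 and 451.9 CPM, were all from set A.

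Grm7, the group III gene whose product sits in the active zone of presynaptic terminals, varied least of the 4 well-counted members. It lies on the plus strand of chromosome 6 from 110645581 to 111567230, and its exons overlap a predicted gene on the opposite strand (Gm20387). Its level over the 23 immunopurified libraries ran from 36.7 to 71.2 CPM, with a median of 54.0 CPM and an SD of 10.1. Group means were 55.9 ± 14.5 CPM (SD, n = 3) for saline, 58.0 ± 9.12 for non-escalating (n = 4), 61.6 ± 12.7 for escalating (n = 2), 50.1 ± 9.03 for saline withdrawal (n = 5) and 55.5 ± 10.3 for non-escalating withdrawal (n = 9). In saline withdrawal set A replicate 1, where Grm5 and Grm4 were at their lowest, Grm7 was at 51.7 CPM, inside the range of the other libraries.

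Grm8, a high-affinity group III receptor gene (chromosome 6, 27275119 to 28135178, minus strand), was low in 22 of the 23 immunopurified libraries, at 0 to 6.12 CPM. The exception was non-escalating withdrawal set B replicate 5, with 199 counts or 47.6 CPM, against 637 counts over all 23. Saline libraries had 4.20, 1.12 and 2.06 CPM, non-escalating libraries 4.88, 1.89, 6.12 and 4.24 CPM, and the escalating libraries 1.48 and 2.90 CPM. Saline withdrawal libraries ran from 0.112 to 3.91 CPM. The groups overlapped, and 1 immunopurified library and the saline withdrawal input held 0 counts. Exons of Grm8 overlap the microRNA gene Mir592 on the same strand.

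The plot of receptor levels by library shows these values side by side.

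**Figure D1:**
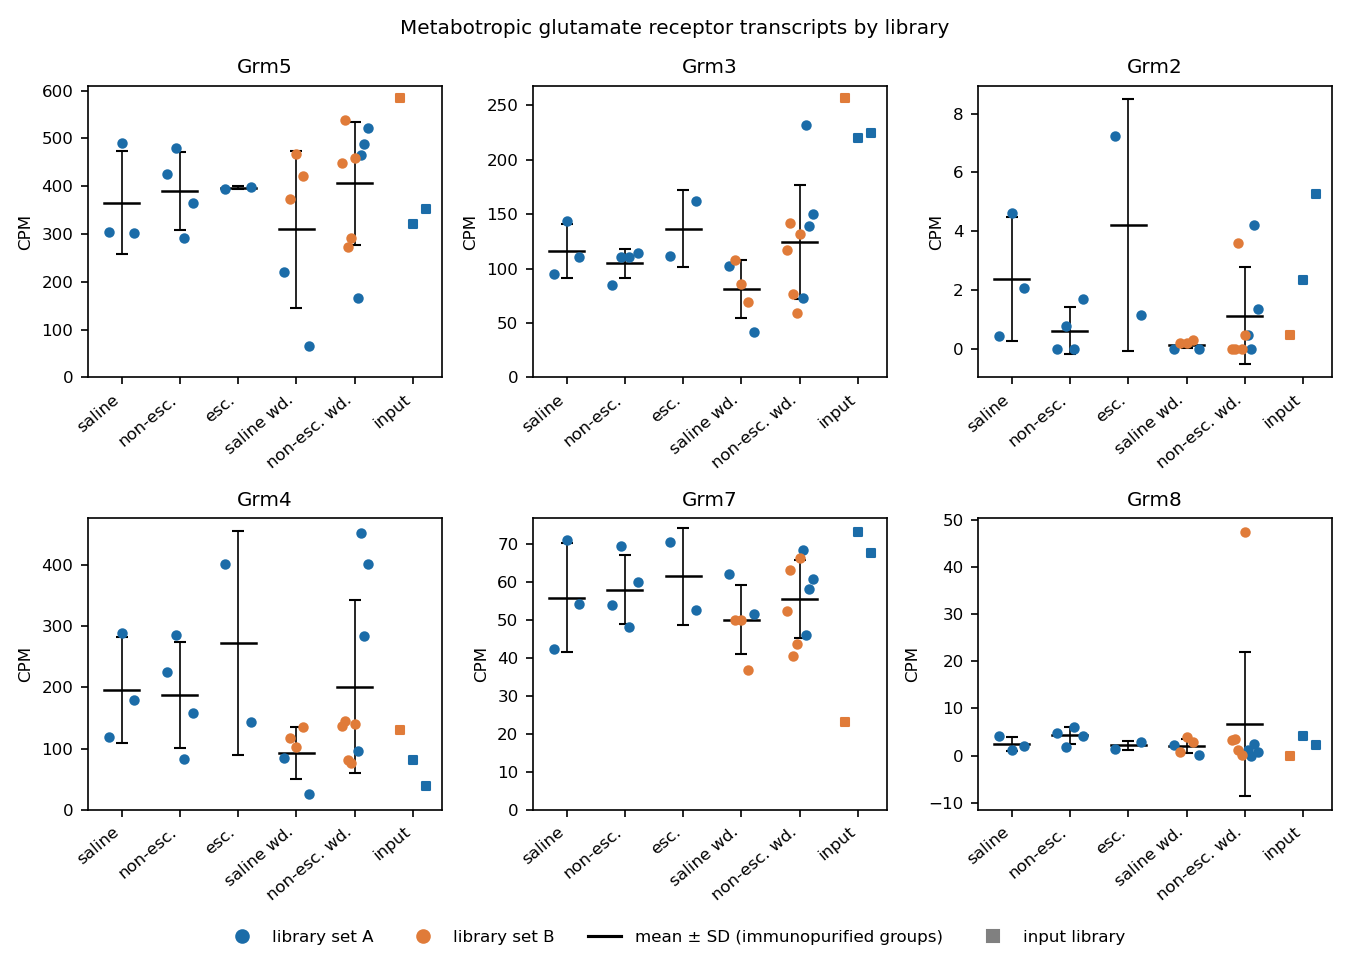
Level of each receptor transcript (CPM, vertical axis) in every library, by group (horizontal axis; esc., escalating; wd., withdrawal). Circles are immunopurified libraries and squares are inputs, coloured by library set, and bars give the mean ± SD of each immunopurified group. Grm3 inputs, at 219.5 to 256.9 CPM, lie above all immunopurified libraries but 1, and 1 library at 47.6 CPM sets the Grm8 scale.

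Levels of different genes were compared only per kilobase of exon. Grm5 and Grm3 led in immunopurified RNA, with 36.7 ± 11.7 and 36.7 ± 13.2 (SD, n = 23) CPM per kilobase, and Grm5 was above Grm3 in 14 of 23 libraries. Grm4 followed at 30.3 ± 19.5 CPM per kilobase, below Grm3 in 17 of 23 libraries. The ranges of these 3 genes overlapped, and the differences between them were not tested. With the length of the longest coding transcript in place of all exons, Grm4 had the higher mean, at 39.3 against 36.7 for Grm3. Grm4 was then above Grm3 in only 9 of 23 libraries. Grm7 came next at 9.40 ± 1.72 CPM per kilobase, below Grm4 in 22 of 23 libraries. Grm8 and Grm2, at 0.435 ± 0.967 and 0.255 ± 0.390 CPM per kilobase, were the lowest and overlapped each other.

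The inputs had a different order. Grm3 led in all 3 inputs, with 76.6 ± 6.68 (SD, n = 3) CPM per kilobase, ahead of Grm5 at 40.9 ± 14 and Grm4 at 14 ± 7.68. As a share of the summed level per kilobase of the 6 receptors, Grm3 made up 50.4% to 57.8% in the inputs and 23.5% to 42.3% in the immunopurified libraries, with no overlap. Grm4 made up 5.16% to 13.1% in the inputs and 12.7% to 43.1% in the immunopurified libraries, which overlapped. The share of Grm5 also overlapped between the 2 kinds of library, at 24% to 34.1% in inputs and 19.6% to 45.6% in immunopurified libraries. Outside the 6, Grm6, the retinal group III gene, had 0 counts in all 26 libraries, which allows up to 3 counts in each.

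**Figure D2:**
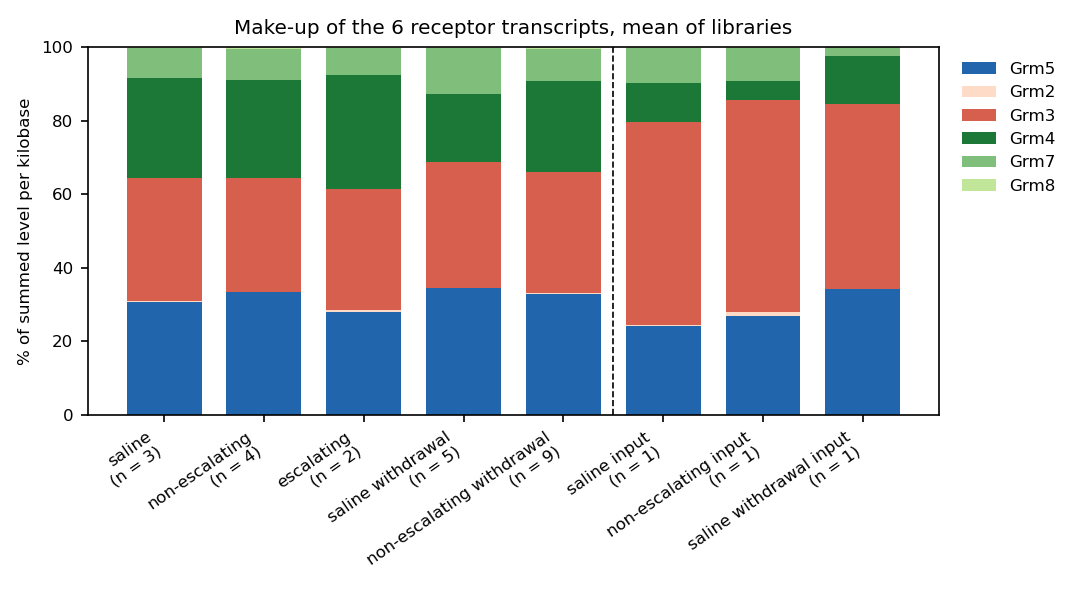
Share of each receptor in the summed level per kilobase of the 6 receptors (percent, vertical axis), as the mean over the libraries of each group (horizontal axis), with inputs to the right of the dashed line. Grm3 takes 54.5% on average in inputs and 32.9% in immunopurified libraries, and Grm4 takes 9.54% and 24.5%.

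Immunopurified libraries were compared with inputs to see which receptor transcripts are enriched on the ribosomes of Drd2 cells relative to the whole tissue. Grm3 fell in immunopurified RNA, with a log2 fold change of -1.19 ± 0.24 (SE; 95% interval -1.69 to -0.69; edgeR quasi-likelihood test, Benjamini-Hochberg adjusted p = 0.00827), or 2.28-fold lower. The 12 immunopurified libraries of the 3 exposures that have an input ran from 41.8 to 143.5 CPM, with a median of 104.9, and the inputs from 219.5 to 256.9 CPM, so the 2 sets of libraries did not overlap. Grm3 was the only 1 of the 6 receptors called. In the same fit edgeR called 1125 of 16422 genes (6.85%), 549 of them higher (3.34%) and 576 lower (3.51%), and 305 genes (1.86%) were higher and 561 (3.42%) lower with no overlap. The median log2 fold change of all tested genes was 0.17.

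The call on Grm3 was lost when either of 2 inputs was left out. Without the saline withdrawal input the log2 fold change was -1.0 with an adjusted p of 0.0631 by edgeR, and without the non-escalating input it was -1.24 with an adjusted p of 0.0552, whereas without the saline input it was -1.31 with an adjusted p of 0.0246. The replicate block also ended the call, with a log2 fold change of -1.37 and an adjusted p of 0.0627. Without saline withdrawal set A replicate 1 it was -1.18 ± 0.19, with an adjusted p of 0.00194. Taken 1 exposure at a time, with no test, the differences in log2 CPM were -0.93 in saline, -1.10 in non-escalating and -1.73 in saline withdrawal libraries.

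Markers of other cell types moved in the same direction as Grm3. The 10 astrocyte markers summed to 139.5 to 477.8 CPM in immunopurified libraries and 2093 to 3284 CPM in inputs, none of them at 0 in either, and 8 of the 10 were called lower (median log2 fold change -3.04). Of the 7 D1 neuron markers, 5 were called lower (median -2.54), as were 8 of the 9 oligodendrocyte markers (median -2.43). Of 5 tested cholinergic interneuron markers, 1 was called lower and 0 had a positive log2 fold change (median -1.80). Endothelial and mural markers went the other way, with 3 of 9 called higher and a median of 2.97. The part of other cell types in the Grm3 difference was not tested, and bulk libraries do not show which cells a transcript came from. Within the 23 immunopurified libraries the correlation of Grm3 with the summed astrocyte markers was r = -0.122 and rho = -0.101 (permutation p = 0.579 and 0.646, adjusted 0.651 and 0.727).

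Grm4 was 80.6 CPM in the saline input against 118.6 to 289.2 CPM after purification, and 39.3 CPM in the non-escalating input against 83.4 to 284.9 CPM. In saline withdrawal the input held 131.0 CPM, and the 5 immunopurified libraries held 25.2 CPM in set A replicate 1, which stood apart, 84.7 CPM in set A replicate 2, and 116.9, 102.3 and 135.2 CPM in set B, so 1 of the 5 was above the input. The fitted log2 fold change was 0.99 ± 0.48 (SE; 95% interval -0.03 to 2.01; edgeR adjusted p = 0.205) and was not called. Single inputs moved it from 0.49 without the non-escalating input to 1.74 without the saline withdrawal input. With the share of reads outside genes as a covariate Grm4 was called higher, with a log2 fold change of 1.41 ± 0.35 and an edgeR adjusted p of 0.0167. With that covariate 930 genes in all were called higher and 859 lower, against 549 and 576 without it.

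The other 4 receptors were not called. Grm5 had 320.7, 351.3 and 583.7 CPM in the inputs against 350.6 ± 123.2 (SD, n = 12) CPM after purification, and its log2 fold change was -0.05 (95% interval -0.65 to 0.56). Grm7 had 73.3 and 67.8 CPM in the inputs of set A and 23.2 CPM in that of set B, against 54.2 ± 10.2 (SD, n = 12) CPM, and its log2 fold change was 0.05 (95% interval -0.53 to 0.62). Neither interval reached a 2-fold change in either direction. The intervals for the sparsely counted Grm2 (-4.36 to 0.94) and Grm8 (-1.63 to 3.19) were much wider.

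**Figure D3:**
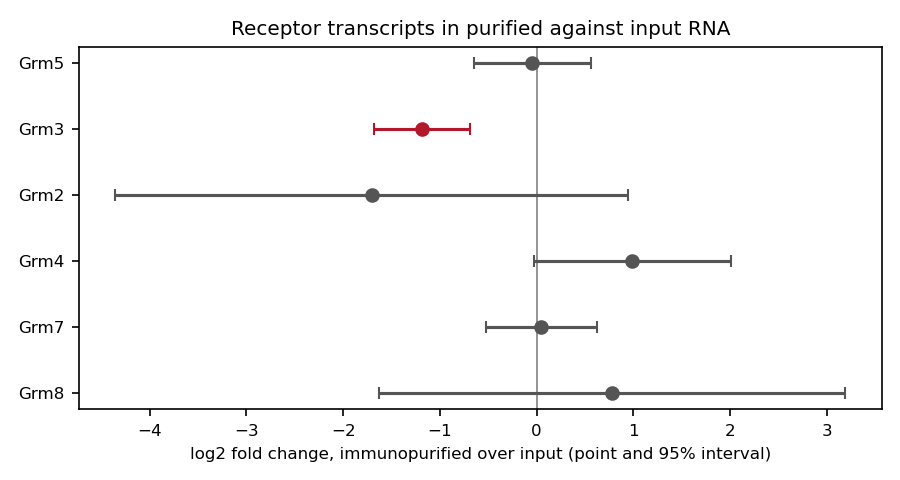
Log2 fold change of each receptor transcript in 12 immunopurified libraries over 3 inputs (horizontal axis), with the point estimate and 95% interval from edgeR; the called gene is drawn in red. The interval of Grm3 lies below 0, from -1.69 to -0.69, and the intervals of the other 5 cross 0.

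Signalling partners of the receptors were taken from lists of genes by role. In the Gq pathway of group I receptors, 2 of 16 genes were called higher and 0 lower in immunopurified RNA, where 3.34% of all genes tested were called higher and 3.51% lower. They were Plcb1, a phospholipase C that group I receptors activate (log2 fold change 0.81, edgeR adjusted p = 0.0298), and Itpr2, an inositol trisphosphate receptor that is abundant in astrocytes (2.83, adjusted p = 0.0331). The list median was 0.73, against 0.17 for all genes. Of 13 scaffold proteins of group I receptors, Shank3 was called higher (0.75, edgeR adjusted p = 0.0198) and Shank1 and Dlgap1 lower (-1.15 and -0.79, adjusted p = 0.0422 and 0.0359). All 3 are proteins of the postsynaptic density.

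In the Gi/o list, which serves group II and III receptors, 1 of 11 tested genes was called. Gnai1, an inhibitory G-protein alpha subunit, fell in immunopurified RNA (-1.55, edgeR adjusted p = 0.000164). Among genes of glutamate uptake and release, none was called higher. The astrocyte transporters Slc1a2 (-2.91, edgeR adjusted p = 1.44e-06) and Slc1a3 (-3.09, adjusted p = 4.46e-05), both also on the astrocyte marker list, fell. Among 11 genes of receptor desensitisation, 7 synaptic partners of group III receptors and 11 genes of receptor-dependent long-term depression, edgeR called 0, where 6.85% of all genes tested were called. The lowest unadjusted p in these 3 lists were 0.00936 for Grk3, a receptor kinase (-1.62, adjusted p = 0.0829), 0.0163 for Ppfia4, a liprin (-0.88, adjusted p = 0.111), and 0.0297 for Map1b, a microtubule protein made during such depression (-0.48, adjusted p = 0.151).

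Immunopurified libraries differed in the summed level of the D2 neuron markers, and the levels of 3 of the 6 receptors correlated with it. Over the 23 libraries the log2 level of Grm4 correlated with the summed D2 markers with r = 0.94 and rho = 0.929 (permutation p = 1e-05 for both, the smallest that 100000 resamples can give; 6e-05 and 9e-05 after Benjamini-Hochberg adjustment over 18 relations). The correlation held within set A (r = 0.957, n = 15) and set B (r = 0.897, n = 8), and was 0.904 without the 2 libraries farthest from the median. Grm5 gave r = 0.84 and rho = 0.776 (permutation p = 1e-05 and 2e-05, adjusted 6e-05 and 9e-05), with 0.936 in set A, 0.901 in set B and 0.753 without the 2 farthest libraries. Grm3 gave r = 0.751 and rho = 0.692 (permutation p = 6e-05 and 0.00046, adjusted 0.000216 and 0.00166), with 0.71 in set A, 0.903 in set B and 0.553 without the 2 farthest libraries. The same 3 genes fell as the share of reads outside genes rose, with r = -0.869 for Grm5, -0.814 for Grm4 and -0.734 for Grm3 (adjusted permutation p = 6e-05, 9e-05 and 0.00033). The markers and the receptors were counted in the same libraries, so these relations describe the libraries.

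Grm7 gave r = 0.401 and rho = 0.465 with the D2 markers (permutation p = 0.0584 and 0.0264, adjusted 0.131 and 0.068). Set A alone gave r = 0.246 and set B alone r = 0.742, and the difference from Grm4 was not tested. Grm2 and Grm8 gave r = 0.443 and 0.262 (adjusted permutation p = 0.0857 and 0.335), on few counts. In the plot against D2 marker level, the only immunopurified library at the marker level of the inputs was the library that stood apart. Inputs lay above it for Grm5, Grm4 and Grm3, and on both sides of it for Grm7. No line was fitted. At 1984 to 2096 CPM of D2 markers the inputs held 320.7 to 583.7 CPM of Grm5, and the immunopurified library at 2046 CPM held 66.6 CPM.

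**Figure D4:**
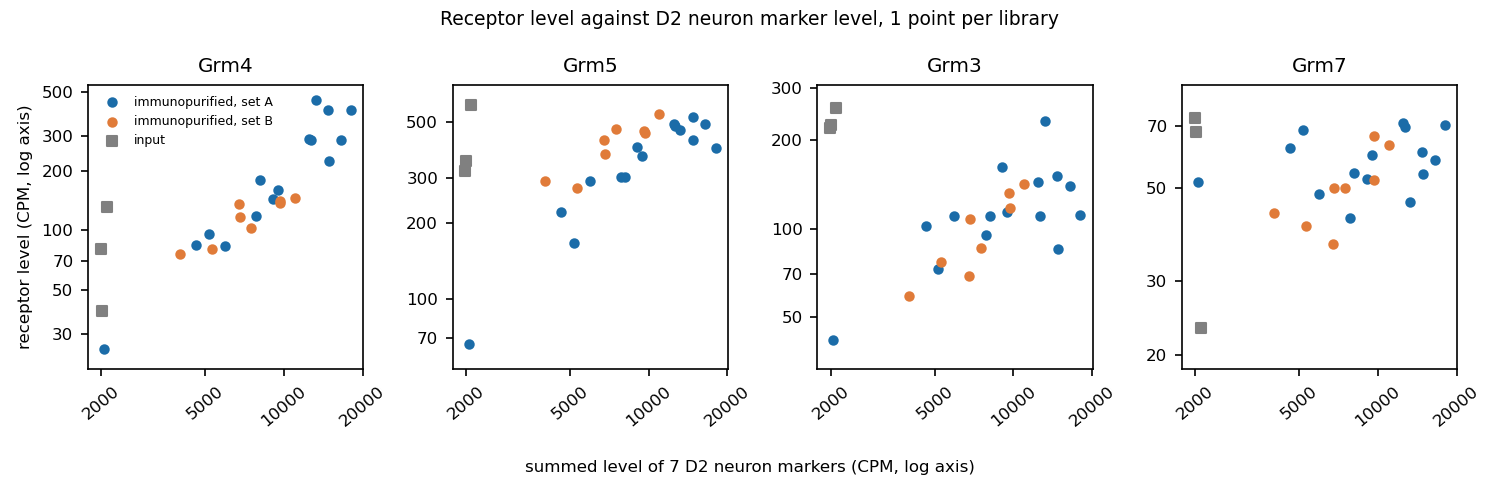
Level of Grm4, Grm5, Grm3 and Grm7 (CPM, vertical log axes) against the summed level of 7 D2 neuron markers (CPM, horizontal log axes), with 1 point per library and colours for the library sets; squares are inputs. Grm4 rises with the markers most closely (r = 0.94 over 23 immunopurified libraries) and Grm7 least of the 4 (r = 0.401).

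The genes with the profiles most like those of the receptors over the 23 immunopurified libraries were ranked by Pearson r of log2 CPM among 10413 other genes, as a description. For Grm5 they were Pdpk1, a kinase upstream of Akt, Cdk5r1, the activator of the neuronal kinase Cdk5, and Rab6b, a vesicle GTPase (r = 0.978, 0.971 and 0.971). For Grm4 they were Grid1, a delta-type glutamate receptor, Ptpn5, the striatum-enriched tyrosine phosphatase, and Nlgn3, a postsynaptic adhesion protein (r = 0.962, 0.956 and 0.954). For Grm3 they were Vstm2a, the autophagy receptor Sqstm1 and the sorting receptor Sorl1 (r = 0.882, 0.882 and 0.871). Grm7 had no match this close, and its nearest were Zfp414, the proteasome subunit Psmb5 and the RNA surveillance gene Upf3a (r = 0.756, 0.744 and 0.737). Neither did Grm2 and Grm8, on few counts, whose highest r among 10414 genes were 0.732 and 0.773. All of these values share the libraries, their depth and their level of D2 neuron markers.

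Groups of immunopurified libraries were compared to see whether receptor transcripts on Drd2-cell ribosomes change with cocaine, with escalation of intake or with withdrawal. None of the 6 receptors was called in any of 6 comparisons of groups or in the interaction of treatment with withdrawal. EdgeR called 0 of 16911 genes (0%) in each of these 7 comparisons, while 345 to 885 genes had an unadjusted p under 0.05, and none of the 6 receptors was among them. DESeq2 called 1 to 12 genes per comparison and none of the 6. The comparisons share groups, so their values are not independent of each other.

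Without withdrawal, the receptors with many counts differed little between groups. For non-escalating against saline the log2 fold change of Grm5 was 0.09 ± 0.44 (SE), of Grm3 -0.15 ± 0.37, of Grm4 -0.06 ± 0.60 and of Grm7 0.05 ± 0.26, with adjusted p = 1 by edgeR for each. For escalating against saline, with 2 escalating libraries, the values were 0.12 ± 0.52, 0.23 ± 0.45, 0.48 ± 0.71 and 0.14 ± 0.31 in the same order, again with adjusted p = 1. The value for Grm4 turned to -0.45 without escalating replicate 1, the library at 401.5 CPM. Escalating against non-escalating libraries gave 0.02 ± 0.49, 0.38 ± 0.42, 0.53 ± 0.67 and 0.09 ± 0.29, and that of Grm4 turned to -0.39 without the same library. The sparsely counted Grm2 gave -1.91 ± 1.7 in non-escalating and 0.82 ± 2.0 in escalating against saline. In escalating against non-escalating it gave 2.74 ± 1.9. Grm8 gave 0.79 ± 1.3, -0.17 ± 1.5 and -0.96 ± 1.5 in the same order. The 95% intervals reached a log2 fold change of 1.95 for Grm4 and 0.77 for Grm7 in escalating against saline, so the intervals leave room for changes up to these sizes.

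After withdrawal, all 6 receptors had a higher fitted level in non-escalating than in saline mice, and none was called. Grm3 gave a log2 fold change of 0.58 ± 0.28 (SE; 95% interval -0.01 to 1.17; edgeR adjusted p = 0.749). Grm5 gave 0.52 ± 0.34 and Grm4 0.84 ± 0.49, with the same adjusted p. Grm7 gave 0.15 ± 0.19 (adjusted p = 0.837). The fitted value of Grm2 was 3.03 ± 1.7 and rests on 3 libraries with 1 count each in saline withdrawal. That of Grm8 was 1.25 ± 1.1 and turned to -0.16 without the library with 199 counts.

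The 2 library sets gave different values for this comparison. In set A, with 2 saline withdrawal and 4 non-escalating withdrawal libraries, the log2 fold change was 1.52 ± 0.51 for Grm5, 2.50 ± 0.74 for Grm4 and 1.05 ± 0.44 for Grm3 (adjusted p = 0.153, 0.134 and 0.227 by edgeR). In set B, with 3 and 5 libraries, it was -0.08 ± 0.22, -0.04 ± 0.24 and 0.25 ± 0.28 (adjusted p = 1 for each). Grm7 gave 0.04 in set A and 0.22 in set B. The difference between the sets was not tested. With the library of uncertain set placed in set B, a choice made after seeing the data, set A held 1 saline withdrawal library, the one that stood apart, and gave 2.63 ± 0.63 for Grm5, 3.62 ± 1.0 for Grm4 and 1.83 ± 0.56 for Grm3 (adjusted p = 0.0767, 0.089 and 0.105 by edgeR, with the lone library assumed to vary like the other groups). Set B then gave 0.10 ± 0.25, 0.05 ± 0.24 and 0.17 ± 0.26, and the joint fit 0.58 ± 0.37, 0.63 ± 0.50 and 0.55 ± 0.31. Without saline withdrawal set A replicate 1 the joint fit gave 0.19 ± 0.28 for Grm5, 0.41 ± 0.44 for Grm4 and 0.35 ± 0.27 for Grm3 (adjusted p = 1 by edgeR).

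Markers moved with the same groups. The summed D2 markers were 2046 to 7488 CPM in saline withdrawal libraries and 3999 to 16470 CPM in non-escalating withdrawal libraries, and all 7 had a positive log2 fold change (median 0.63), though none was called. Endothelial and mural markers were 1100 to 7528 CPM and 65.0 to 5102 CPM, with 0 of 9 positive and a median of -1.02. Without the library that stood apart, 7 of 7 D2 neuron markers and 0 of 9 endothelial and mural markers were positive (medians 0.21 and -0.87). The part of these markers in the receptor values was not tested, and with the share of reads outside genes as a covariate the log2 fold changes were 0.26 for Grm5, 0.52 for Grm4 and 0.34 for Grm3.

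Withdrawal itself was compared within each treatment. Saline withdrawal against saline gave log2 fold changes of -0.62 ± 0.48 (SE) for Grm5, -0.37 ± 0.40 for Grm3, -0.56 ± 0.69 for Grm4 and -0.05 ± 0.27 for Grm7 (adjusted p = 0.782 to 0.960 by edgeR). Without saline withdrawal set A replicate 1 the values were -0.14, -0.03, 0.05 and -0.02. Non-escalating withdrawal against non-escalating gave -0.19 ± 0.37 for Grm5, 0.36 ± 0.33 for Grm3, 0.34 ± 0.52 for Grm4 and 0.05 ± 0.23 for Grm7 (adjusted p = 0.925 to 0.980). The interaction, the difference between the effects of cocaine after and without withdrawal, was 0.43 ± 0.55 for Grm5, 0.73 ± 0.47 for Grm3, 0.90 ± 0.77 for Grm4 and 0.09 ± 0.32 for Grm7 (adjusted p = 1). Without the library that stood apart it was 0.09 ± 0.44, 0.49 ± 0.43, 0.47 ± 0.66 and 0.07 ± 0.33 (adjusted p = 1). On few counts, Grm2 gave -4.07 ± 2.2 in saline withdrawal against saline. It gave 0.88 ± 1.6 in non-escalating withdrawal against non-escalating and 4.95 ± 2.4 in the interaction. Grm8, also on few counts, gave -1.95 ± 1.3, -1.49 ± 1.2 and 0.46 ± 1.6 in the same order.

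Markers moved with these comparisons too, with none called. In saline withdrawal against saline, 0 of 7 D2 neuron markers had a positive log2 fold change (median -0.51), against 3 of 7 (median -0.037) without the library that stood apart. Endothelial and mural markers were positive for 9 of 9 (median 1.46), and for 8 of 9 (median 1.18) without it. In the interaction 7 of 7 D2 neuron markers and 0 of 9 endothelial and mural markers were positive (medians 0.61 and -0.89), against 5 of 7 and 0 of 9 (0.15 and -0.76) without it. In non-escalating withdrawal against non-escalating, 2 of 7 and 9 of 9 were positive (medians -0.12 and 0.44). Their part in the receptor values was not tested.

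**Figure D5:**
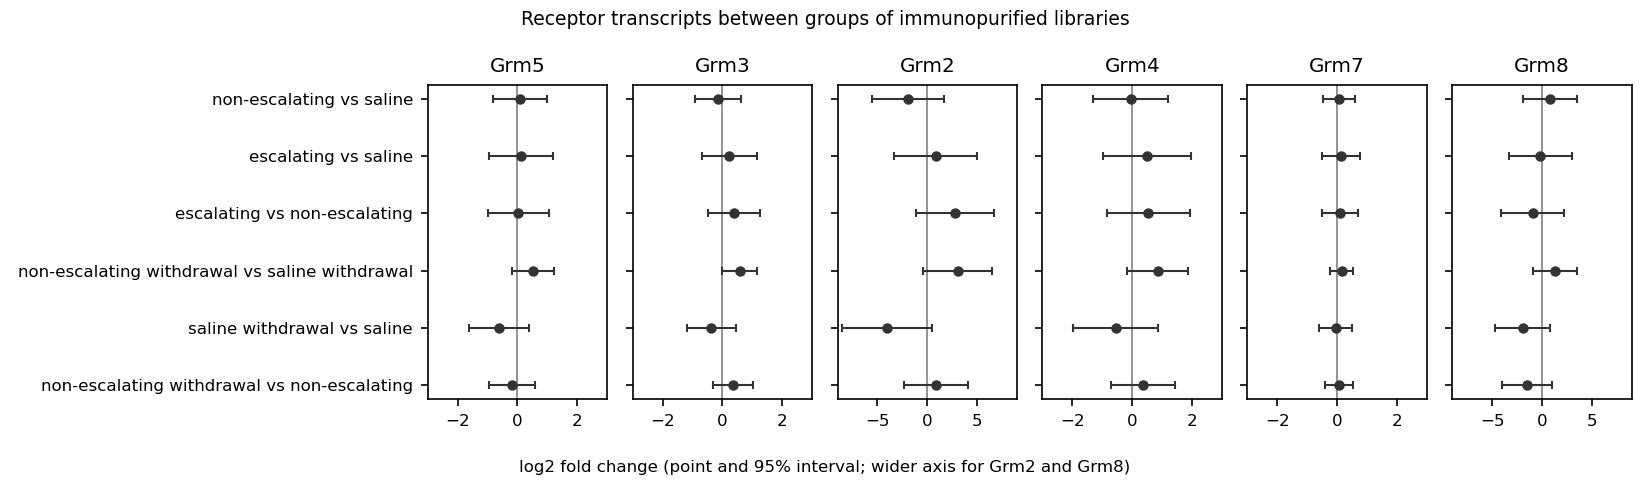
Log2 fold change of each receptor transcript (horizontal axes, with the point and 95% interval from edgeR) in 6 comparisons of immunopurified groups (rows); the axes of Grm2 and Grm8 are wider. All 36 intervals cross 0, and the intervals of Grm7 are the narrowest.

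Partner genes showed no called change between groups either, with 0 genes called by edgeR in all lists and comparisons. In non-escalating against saline withdrawal, 8 of 11 Gi/o genes and 11 of 13 scaffold genes had a positive log2 fold change, with medians of 0.60 and 0.55, against 50.9% of all genes and a median of 0.01. The other lists ran from 2 of 10 positive in glutamate uptake and release (median -0.14) and 9 of 16 in the Gq pathway (0.28) to 7 of 11 in desensitisation (0.34), with 4 of 7 in partners of group III receptors (0.31) and 7 of 11 in long-term depression (0.20). Without the library that stood apart the Gi/o and scaffold medians were 0.24 and 0.28, with 8 of 11 and 12 of 13 positive, against 54.1% of all genes and a median of 0.046, and long-term depression turned to -0.14. The lowest unadjusted p in these lists were 0.00839 for Gnai1 (0.90) and 0.0487 for Shank1 (1.02), each with an adjusted p of 0.749, and without that library their log2 fold changes were 0.80 and 0.76. Nptx2, a secreted pentraxin that binds synaptic glutamate receptors, gave 1.42 in that comparison (edgeR adjusted p = 0.749) and -1.85 in saline withdrawal against saline (adjusted p = 0.782), which share the saline withdrawal libraries, and 1.34 and -1.74 without that library.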

How the data were processed

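Ribosome-bound mRNA (23 libraries) and input RNA (3 libraries) of Drd2-TRAP dorsal striatum were analysed. The authors deposited 1 table of raw counts per library. Per the submitters' processing notes, STAR 2.0.0e aligned the reads (genome build mm10) and HTSeq counted them. The sources used here do not name the annotation, strand setting or filters. Of the tables, 10 list 32531 genes and 16 list 32657. They were joined on 31735 symbols found in both and on 243 pairs of old and current symbols matched through RefSeq synonyms. These 31978 genes held at least 99.55% of the gene counts of every library. Groups come from the titles, as do library sets. In set A all but 1 library are marked as copies of lower library numbers, and the meaning of that mark is not given. No pair of libraries of 1 group (56 pairs) was identical or within sampling noise (chi-square per degree of freedom 11.8 to 265).

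Counts were tested with edgeR 4.0.16 in R 4.3.3 (TMM, filterByExpr, quasi-likelihood F test, Benjamini-Hochberg over all genes tested, threshold 0.05). Immunopurified libraries entered 1 fit with terms for group and library set (16911 genes, 17 residual degrees of freedom). Immunopurified against input used 12 and 3 libraries with terms for exposure and library set (16422 genes, 10 residual degrees of freedom). The scripts were tested on simulated data. SE is the log2 fold change over the root of F. The prior count for log2 CPM was 2. Correlations used 100000 permutations. Alternatives were a fit without the low-count filter, DESeq2 1.42.0, RLE factors, a replicate block, no set term, reads outside genes as a covariate, single sets or exposures, and leaving out each library. Reads outside genes are those that HTSeq placed in no feature, as a share of uniquely aligned reads.

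Positions and exon lengths are from GENCODE M21 (GRCm38). The receptors are named in every comparison and Grm6 by level. For Grm5, Grm4, Grm3 and Grm7 the 3 genes with the most similar profile and a mean of at least 5 CPM are named. Genes of the pathway lists are named where called, with at most 3 others per list and comparison by lowest p. Some genes of these lists are not reported here. The members, lists and tests were chosen with earlier results of these data known. The length of the longest coding transcript, and set B for saline withdrawal set A replicate 2, were tried after seeing the data. Marker lists are given as counts.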

Additional observations from a re-analysis of the deposited data

Results flagged for a closer look

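Grm3 in non-escalating set A replicate 1 was at 85.1 CPM, far below the other 3 libraries of its group, the nearest of which was at 110.3 CPM. Its gap to the nearest library was 0.872 of the range of the 4 values. Its D2 neuron markers summed to 14820 CPM and 24.4% of its reads lay outside genes.

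Grm8 in non-escalating withdrawal set B replicate 5 was at 47.6 CPM, from 199 counts, while the next of the 9 libraries of its group was at 3.58 CPM, a gap of 0.925 of the range. The endothelial and mural markers of that library summed to 65.0 CPM, the lowest of all libraries. The other 5 receptors lay within the range of their group there. Of 18 groups of receptor values examined in this way 2 stood out, where chance picks out about 1 in 20.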

How the results depend on the processing

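Of 442 receptor values recomputed under other settings, 403 kept their direction and side of the threshold, and of 534 values with 1 library left out 496 did. Every value that changed sign was of a receptor not called in that comparison. Grm3 in immunopurified against input kept its direction under all settings run. It lost its call without the saline withdrawal or the non-escalating input, and with the replicate block (adjusted p = 0.0627 by edgeR), and the cause was not tested. Whether replicate numbers pair the libraries is not known. Residuals of 25 same-number pairs had a median r of -0.14 (from -0.54 to 0.70), against 0.0083 (from -0.61 to 0.62) for 172 other pairs. The residuals were centred on group means only, so this check cannot exclude pairing. The count of called genes for immunopurified against input was 70 with that block, 2926 with DESeq2 and 1789 with reads outside genes as a covariate, against 1125, and ran from 240 to 1527 with 1 library left out, reaching 240 when the non-escalating input was dropped, 565 when that of saline withdrawal was and 614 when that of saline was. Between groups of immunopurified libraries, where edgeR called 0, DESeq2 called 2 genes for non-escalating against saline, 6 for escalating against saline and 11 for escalating against non-escalating. It called 1 for non-escalating against saline withdrawal, 7 for saline withdrawal against saline, 12 for non-escalating withdrawal against non-escalating and 2 for the interaction. Without the low-count filter escalating libraries had 2 called genes against saline and 1 against non-escalating, and with reads outside genes as a covariate 2 and 4. With 1 library left out those counts ran from 0 to 2 and from 0 to 6, the latter reaching 6 without escalating replicate 1. RLE factors shifted the median of all genes from 0.084 to 0.22 for saline withdrawal against saline and by less than 0.1 in the other 7 comparisons.

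The values that changed sign were as follows. With DESeq2 and with RLE factors they were Grm5 at -0.0061 in escalating against non-escalating, and Grm7 at 0.10 in saline withdrawal against saline. With the replicate block they were Grm8 at -0.072 in non-escalating against saline withdrawal and -0.78 in the interaction, Grm7 at 0.0064 in saline withdrawal against saline and -0.012 in immunopurified against input, and Grm2 at -0.24 in non-escalating withdrawal against non-escalating. With no set term Grm5 was 0.056, Grm7 -0.062 and Grm8 0.63 in that last comparison. With reads outside genes as a covariate Grm5 was -0.20 in non-escalating and -0.097 in escalating against saline, 0.15 in non-escalating withdrawal against non-escalating and 0.17 in immunopurified against input, and Grm7 was 0.068 in saline withdrawal against saline. In set A alone Grm7 was 0.021 in saline withdrawal against saline, Grm5 was 0.071 in non-escalating withdrawal against non-escalating, and Grm7 and Grm8 were -0.013 and -0.79 in the interaction. With the library of uncertain set in set B, a choice made after seeing the data, Grm7 was -0.0016 in non-escalating withdrawal against non-escalating, and with set A alone then Grm5 was 0.072. In set B alone Grm5 was -0.078 and Grm4 -0.043 in non-escalating against saline withdrawal. For immunopurified against input Grm4 was -0.69 in saline withdrawal alone, Grm5, Grm7 and Grm8 were 0.15, -0.42 and -0.89 in saline alone, and Grm5 and Grm7 were 0.13 and -0.24 in non-escalating alone.

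Leaving out 1 library at a time changed further signs. Escalating against non-escalating ran from -0.097 to 0.14 for Grm5, -0.39 to 1.09 for Grm4 and -0.14 to 0.28 for Grm7. Escalating against saline ran from -0.0042 to 0.38 for Grm5, -0.064 to 0.48 for Grm3, -1.01 to 1.72 for Grm2, -0.45 to 1.03 for Grm4, -0.089 to 0.34 for Grm7 and -0.73 to 0.46 for Grm8. Non-escalating against saline ran from -0.025 to 0.34 for Grm5, -0.27 to 0.0085 for Grm3, -0.33 to 0.31 for Grm4 and -0.11 to 0.24 for Grm7. Non-escalating against saline withdrawal ran from -0.16 to 2.37 for Grm8. Saline withdrawal against saline ran from -0.82 to 0.047 for Grm4 and -0.21 to 0.15 for Grm7. Non-escalating withdrawal against non-escalating ran from -0.46 to 2.14 for Grm2 and -0.033 to 0.15 for Grm7. The interaction ran from -0.10 to 0.26 for Grm7 and -0.95 to 1.58 for Grm8. Immunopurified against input ran from -0.16 to 0.17 for Grm5, -0.30 to 0.29 for Grm7 and -0.0038 to 2.02 for Grm8. Depth limits Grm2 and Grm8, whose counts were too few to order groups, and the number of libraries limits escalating (n = 2), input (n = 3) and saline (n = 3). With 1 escalating library left, that library is assumed to vary like the other groups. Grm2 gave no value in set B alone, where it did not pass the low-count filter.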
